A study of Mus musculus with 8 samples.

Results

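The set comprises 7 genes: the proneural factors Neurog1 and Neurog2, the later factors Neurod1 and Neurod4, the sensory homeobox factor Pou4f1 and the neuronal RNA-binding proteins Elavl3 and Elavl4. They are 7 of the 18193 genes with a named probe set, and were chosen as a list of neurogenic factors of sensory and autonomic neurons. The list holds 16 probe sets annotated to exactly 1 member, and each gene was read on its brightest probe set by mean over the 8 arrays. All 7 passed the filter on dim genes, under which 13543 genes were tested, but not equally: the value exceeded the filter's intensity of 19.4 on 8 of 8 arrays for Neurod1, on 6 for Pou4f1, on 3 for Neurog1 and on 2 for Neurog2 and for Neurod4.

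RNA of mouse embryos at stage E11.5 was hybridised to 8 Affymetrix arrays, 1 from FAK mutants and 1 from controls for each of 4 origins. FAK (focal adhesion kinase) relays integrin signals at cell-matrix contacts. The first origin is cranial neural crest cells sorted for p75, dissected from head and thorax, with 3 embryos pooled for each genotype; the others are labelled OFT, LM and UM, which the labels do not spell out, and for those 6 arrays the stage comes from the title of the series. The FAK allele, any Cre driver and the number of embryos per OFT, LM or UM array are not given in the sources used here. The labels name a mutant and a control but no genetic background, so the groups are called by those names. Each origin had 1 array per genotype, so p-values rest on the spread between these arrays and not on repeated samples of an origin.

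In the neurons of sensory ganglia, as in other neuronal lineages, basic helix-loop-helix factors of the Neurog family commit a progenitor to a neuronal fate and are then switched off. They act by binding E-boxes, short DNA motifs, in the control regions of genes that include Neurod1, Neurod4 and the Notch ligands. Neurod factors, Pou4f1 and the Elavl proteins follow as the cell leaves the cycle and matures.

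The p75-sorted arrays carried the marker profile of the sort. Ngfr, which encodes p75, read 1422 in the p75-sorted mutant and 1043 in the p75-sorted control, against 47.0 to 149 on the other 6 arrays. Sox10, a transcription factor of crest progenitors and glia, read 1620 and 1512 on the p75-sorted mutant and control arrays, against 25.3 to 57.5 elsewhere. The summed intensity of 20 pan-neuronal genes was 12479 in the p75-sorted mutant and 16346 in the control, 5930 and 8220 in OFT, 1975 and 1536 in LM, and 2836 and 3518 in UM, mutant first in each. The p75-sorted pair also had more 3'-weighted signal for Gapdh, with a 3'-over-5' ratio of its control probe sets of 4.91 in the mutant and 2.82 in the control; elsewhere it was 0.70 to 0.986. For Actb this ratio was 1.42 to 1.94 on all 8 arrays. The part of this ratio in the values of p75-sorted cells was not tested, and sorting, pooling and origin cannot be told apart.

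Among the proneural factors, Neurog1 and Neurog2 peaked in different origins. Neurog1, which specifies many placode-derived and late-born sensory neurons, read 11.1 in the p75-sorted mutant and 25.9 in the p75-sorted control, 0.903 and 1.57 in OFT, 0.852 and 0.835 in LM, and 32.6 and 52.5 in UM, mutant first. UM was therefore the highest origin on both genotypes, p75-sorted cells came next, and OFT and LM read close to 0. Neurog2, which acts in early sensory neurons of the ganglia and in epibranchial placodes, read 26.9 in the p75-sorted mutant and 46.6 in the control, 17.6 and 17.0 in OFT, 7.33 and 2.48 in LM, and 0.872 and 8.21 in UM. Its highest arrays were the p75-sorted pair, the only 2 above the filter. Neurog2 thus entered the fits through the origin where it was high, and Neurog1 through the UM pair and the p75-sorted control, so their calls in those origins do not stand as support.

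In limma fits with origin and genotype as terms, on log2(intensity + 32), Neurog1 was lower in OFT than in UM by a log2 difference of -1.15 ± 0.19 (SE, 2 arrays per origin), with an adjusted p of 0.00136. It was also lower in LM than in UM, at -1.17 ± 0.19 with an adjusted p of 0.00566, a call lost without the control array of either origin and with the mean of its probe sets. p75-sorted cells differed from UM by -0.56 ± 0.19 in Neurog1 (adjusted p 0.0289), from LM by 0.60 ± 0.19 (adjusted p 0.0211) and from OFT by 0.59 ± 0.19 (adjusted p 0.0289). These 3 differences did not pass with a pseudocount of 64 or with the mean of probe sets, and each also failed without some single array of its own origins: the p75-sorted control for LM and for OFT, the p75-sorted mutant for OFT and for UM, the LM control, either OFT array, and the UM control. For Neurog2, p75-sorted cells were higher than UM by 0.90 ± 0.20 (adjusted p 0.00304) and higher than LM by 0.89 ± 0.20 (adjusted p 0.00348), with the second call lost without the p75-sorted control and with a pseudocount of 1. The Neurog2 difference between p75-sorted cells and OFT was 0.47 ± 0.20 (adjusted p 0.0839). Between OFT, LM and UM no Neurog2 difference passed: OFT minus LM was 0.42 ± 0.20, OFT minus UM 0.44 ± 0.20 and LM minus UM 0.02 ± 0.20.

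Neurod1, a Neurog target that drives neuronal differentiation, read 65.3 in the p75-sorted mutant and 118 in the control, 95.1 and 182 in OFT, 47.1 and 26.2 in LM, and 201 and 272 in UM. The order by origin was UM, OFT, p75-sorted cells and LM, of which OFT and p75-sorted cells did not differ past the threshold, and the UM pair exceeded every other array. p75-sorted cells were lower than UM by -1.14 ± 0.25 in Neurod1 (adjusted p 0.00361), a call lost without the p75-sorted mutant. The difference between p75-sorted cells and OFT, -0.45 ± 0.25, did not pass (adjusted p 0.191), and the one between OFT and UM, -0.69 ± 0.25, did not either (adjusted p 0.106), although it passed without either LM array and in a fit on the 4 OFT and UM arrays alone. LM was the lowest: LM minus UM was -1.97 ± 0.25 (adjusted p 0.00122), OFT minus LM 1.28 ± 0.25 (adjusted p 0.00578) and p75-sorted cells minus LM 0.83 ± 0.25 (adjusted p 0.0199). The 4 Neurod1 calls were lost with a pseudocount of 1. The OFT call was also lost without the OFT or LM control, and the call of p75-sorted cells against LM without either p75-sorted array or the LM control.

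Neurod4, a related factor of early post-mitotic neurons, stayed near the bottom of the scale. Its intensities were 5.29 in the p75-sorted mutant and 19.0 in the control, 18.6 and 27.5 in OFT, 16.9 and 3.72 in LM, and 2.16 and 20.2 in UM. The p75-sorted, LM and UM pairs overlapped each other and OFT overlapped all but LM. No origin difference passed, with the largest at 0.39 ± 0.24 for OFT minus LM (adjusted p 0.34). Its 2 other probe sets correlated with it at 0.85 and -0.37 over the 8 arrays, so no pattern of Neurod4 is drawn from them.

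**Figure D1:**
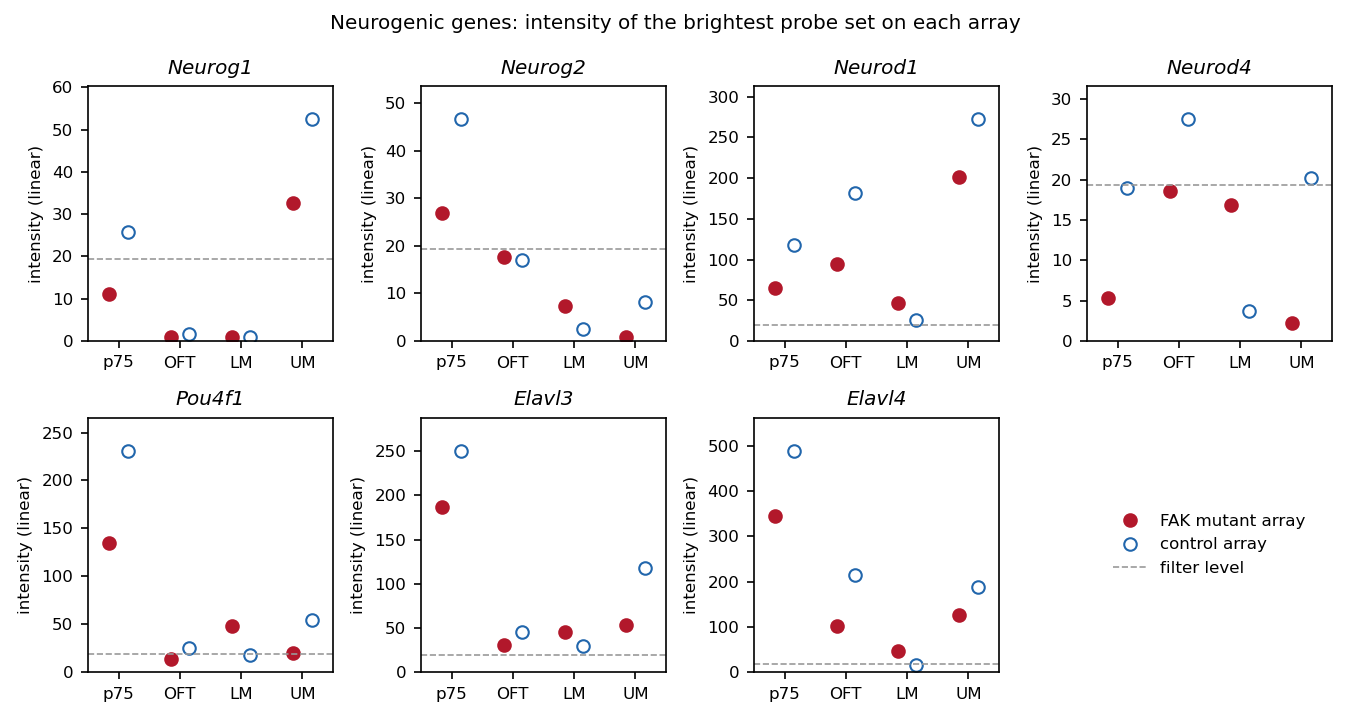
Intensity of the 7 genes on each of the 8 arrays, on a linear scale with an axis of its own per gene, with filled mutant and open control points within each origin and a dashed line at the filter level. The p75-sorted pair was highest for Pou4f1, Elavl3 and Elavl4, the UM pair for Neurog1 and Neurod1, and Neurod4 stayed at or under 27.5 on all 8 arrays.

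Pou4f1, Elavl3 and Elavl4 were highest in p75-sorted cells. Pou4f1, which maintains sensory neuron identity, read 135 in the p75-sorted mutant and 231 in the control, 14.3 and 25.6 in OFT, 48.8 and 18.2 in LM, and 20.02 and 54.9 in UM. Both p75-sorted arrays lay above all 6 others. Elavl3, a neuronal RNA-binding protein present from the end of the last division, read 187 in the p75-sorted mutant and 250.5 in the control, 31.1 and 45.5 in OFT, 45.2 and 29.9 in LM, and 54.1 and 118 in UM. Elavl4, its relative in maturing neurons, read 345 and 489 in p75-sorted mutant and control cells, 101 and 214 in OFT, 48.2 and 17.4 in LM, and 127 and 188 in UM. Again the p75-sorted pair was above the rest, and LM was lowest.

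Pou4f1 was higher in p75-sorted cells than in OFT by a log2 difference of 2.02 ± 0.29 (adjusted p 0.000283), than in LM by 1.72 ± 0.29 (adjusted p 0.000587) and than in UM by 1.64 ± 0.29 (adjusted p 0.000808). Elavl3 was higher in p75-sorted cells than in LM by 1.85 ± 0.23 (adjusted p 0.000101), than in OFT by 1.83 ± 0.23 (adjusted p 0.00014) and than in UM by 1.13 ± 0.23 (adjusted p 0.00239). These 6 calls were kept under each alternative and without any single array. For Elavl4 the difference was 2.82 ± 0.29 against LM (adjusted p 2.7e-05), 1.29 ± 0.29 against OFT (adjusted p 0.00539) and 1.24 ± 0.29 against UM (adjusted p 0.00517). The OFT and UM calls of Elavl4 were lost without the p75-sorted control and with a pseudocount of 1, and the OFT call also without the OFT mutant.

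Among OFT, LM and UM, Elavl4 was also higher in OFT than in LM, by 1.52 ± 0.29 (adjusted p 0.00493), and lower in LM than in UM, at -1.57 ± 0.29 (adjusted p 0.0167). Both were lost with a pseudocount of 1. The first was also lost without the OFT control. The second was also lost without the LM control, either UM array or either p75-sorted array, with no filter, and with the mean of probe sets. OFT and UM did not differ in Elavl4 beyond the spread, at -0.05 ± 0.29 (adjusted p 0.942). Pou4f1 showed no difference past the threshold between OFT, LM and UM, with OFT minus LM at -0.30 ± 0.29, OFT minus UM at -0.38 ± 0.29 and LM minus UM at -0.08 ± 0.29. For Elavl3, OFT minus LM was 0.02 ± 0.23, OFT minus UM -0.70 ± 0.23 (adjusted p 0.0772) and LM minus UM -0.72 ± 0.23 (adjusted p 0.264), and the OFT minus UM difference passed without either LM array, without the UM mutant and in a fit on those 4 arrays alone. In these bulk RNA samples, fewer neurons and less RNA per neuron cannot be told apart.

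Promoter windows of 5 members are shown, from 250 bases before to 50 bases after a RefSeq transcript start in GRCm38.p6, since bHLH members of the list bind E-boxes. Pou4f1, Elavl3 and Elavl4 represent the genes that were highest in p75-sorted cells, and Neurog1 and Neurod1 those highest in UM. The capitals mark every match to the E-box CANNTG, which reads the same on both strands. Pou4f1 (chr14:104467950-104468249, minus strand), Elavl3 (chr9:22051974-22052273, minus strand) and 1 of the 4 Elavl4 starts (chr4:110287478-110287777, minus strand) are given with Neurod1 (chr2:79456587-79456886, minus strand) and Neurog1 (chr13:56252131-56252430, minus strand), each on its own strand.
Pou4f1: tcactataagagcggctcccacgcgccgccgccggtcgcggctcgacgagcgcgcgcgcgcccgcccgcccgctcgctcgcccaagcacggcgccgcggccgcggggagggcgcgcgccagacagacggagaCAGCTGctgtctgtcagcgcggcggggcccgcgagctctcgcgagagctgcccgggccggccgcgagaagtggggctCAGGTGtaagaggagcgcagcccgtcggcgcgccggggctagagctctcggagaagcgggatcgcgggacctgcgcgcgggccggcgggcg
Elavl3: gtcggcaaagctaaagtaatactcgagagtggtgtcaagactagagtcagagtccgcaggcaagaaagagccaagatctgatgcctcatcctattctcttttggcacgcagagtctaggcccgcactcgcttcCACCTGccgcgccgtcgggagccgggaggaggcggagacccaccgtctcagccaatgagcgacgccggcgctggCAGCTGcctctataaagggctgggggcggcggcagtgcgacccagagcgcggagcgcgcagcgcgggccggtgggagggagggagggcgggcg
Elavl4: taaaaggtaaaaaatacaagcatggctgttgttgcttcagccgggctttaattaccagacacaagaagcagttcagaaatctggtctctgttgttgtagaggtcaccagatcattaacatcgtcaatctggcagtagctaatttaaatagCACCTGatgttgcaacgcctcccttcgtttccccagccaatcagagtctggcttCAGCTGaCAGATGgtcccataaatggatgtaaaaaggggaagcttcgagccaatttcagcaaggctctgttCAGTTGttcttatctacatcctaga
Neurod1: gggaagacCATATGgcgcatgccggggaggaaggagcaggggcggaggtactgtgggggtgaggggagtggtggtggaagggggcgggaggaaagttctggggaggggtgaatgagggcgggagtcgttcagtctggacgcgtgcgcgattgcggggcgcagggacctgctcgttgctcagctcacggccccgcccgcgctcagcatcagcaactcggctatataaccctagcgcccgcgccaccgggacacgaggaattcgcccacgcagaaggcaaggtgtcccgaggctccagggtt
Neurog1: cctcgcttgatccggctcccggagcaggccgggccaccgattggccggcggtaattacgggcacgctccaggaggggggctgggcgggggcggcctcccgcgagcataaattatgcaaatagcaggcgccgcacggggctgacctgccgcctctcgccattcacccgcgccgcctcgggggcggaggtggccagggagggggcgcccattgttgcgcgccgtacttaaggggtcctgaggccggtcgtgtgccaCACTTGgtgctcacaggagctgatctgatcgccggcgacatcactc
Pou4f1 and Elavl3 hold 2 E-boxes each, this Elavl4 window holds 4, and Neurod1 and Neurog1 hold 1 each. The Elavl3 matches begin 117 and 43 bases before the start and those of Pou4f1 118 and 41 bases before it. CAGCTG occurs in the Pou4f1 and Elavl3 windows, in this Elavl4 window and in 1 of the 2 Neurod4 windows. It occurs in 16.3% of 32851 RefSeq promoters of the same length, and some CANNTG in 72.3% of them. CAGATG, or CATCTG on the other strand, occurs among the members only in Elavl4 windows, against 17.2% of promoters. CATATG occurs only in Neurod1, against 3.91%. These shares are per single window, while Elavl4 and Neurod4 have several windows each. Of the other Elavl4 starts, 1 window overlaps the printed one and holds the same 4 matches, 1 holds no E-box and 1 holds a single CATCTG. No Elavl4 window holds more matches than the printed one. The window without an E-box spans the annotated 5' end of the gene, at 110351939. The window of Neurog2, which was also highest in p75-sorted cells, holds none, nor does the other Neurod4 window. A match is a description of the letters, and these arrays do not measure binding; which start each probe set reads was not tested.

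Counted by comparison, 6 of 7 members were higher and 0 lower in p75-sorted cells than in LM, where 26.1% of all tested genes were higher and 15.9% lower. Against OFT, 4 were higher and 0 lower, with 19.2% of all genes higher and 15.4% lower. Against UM, 4 were higher (Neurog2, Pou4f1, Elavl3, Elavl4) and 2 lower (Neurog1, Neurod1), with 26% of genes higher and 16% lower. In OFT, 2 of 7 were higher than in LM and 0 lower, against 8.77% and 2.18% of genes. Between OFT and UM, 0 were higher and 1 lower in OFT, against 9.01% and 3.09%. In LM, 0 were higher and 3 lower than in UM, Neurog1, Neurod1 and Elavl4, where 0.738% of genes were higher and 0.82% lower. These counts run over all 7 members, Neurog1 and Neurog2 included, whose calls in UM and p75-sorted cells the filter favoured. Where 4 of 8 arrays had to exceed the filter, Neurog1, Neurog2 and Neurod4 dropped out and the members called in the same 6 comparisons were 4, 3, 4, 2, 0 and 2. The contrasts share arrays, and nothing is read about the list from these counts. Without the p75-sorted control, 3 members were called in p75-sorted cells against LM and 2 against OFT, and without the OFT mutant 2 against OFT. Between OFT and LM 0 were called without the OFT control, and between LM and UM 1 without either control array. Between OFT and UM 3 were called without either LM array and 2 without the UM mutant.

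**Figure D2:**
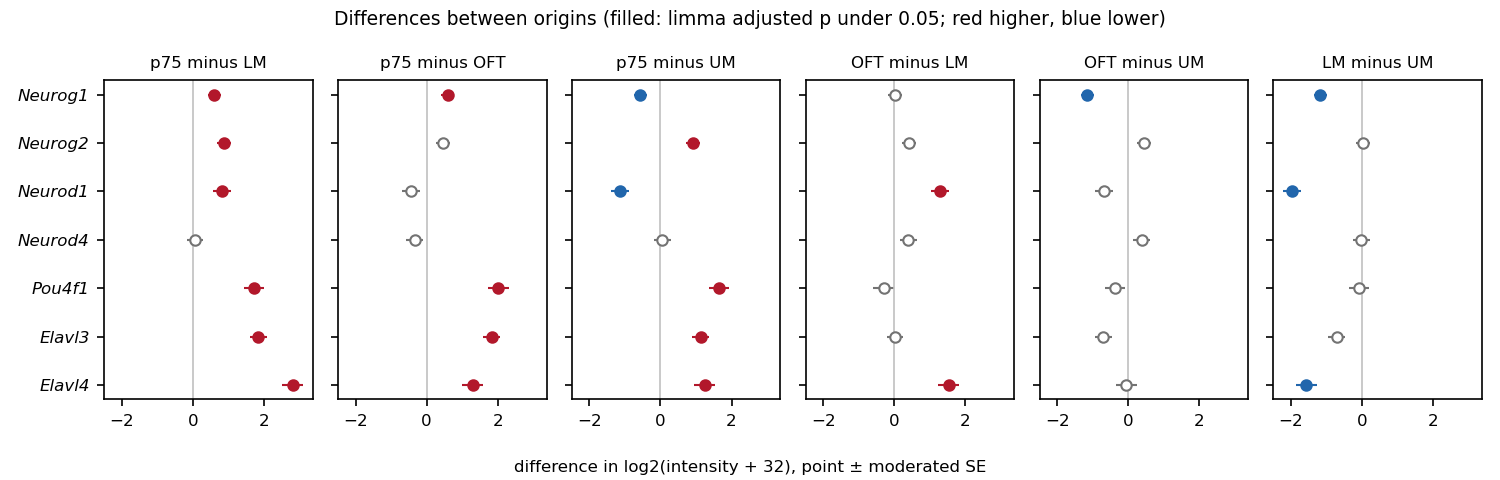
Log2 difference with its moderated SE for the 7 genes in each of the 6 comparisons of origins, each named as first origin minus second. Points right of 0 are higher in the first origin; in p75-sorted cells minus UM, Neurog1 (-0.56) and Neurod1 (-1.14) lie left of 0 while Pou4f1 (1.64), Elavl4 (1.24) and Elavl3 (1.13) lie right of it.

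Other probe sets gave partial support. Of 9 further probe sets, 6 passed the filter. The brightest sets made 22 calls among 42 member and origin comparisons, for which the shares of all genes are given above. The further sets could be compared 23 times in called comparisons, with the same direction in 23 and a pass in 18. The 5 that did not pass all belonged to Elavl4. Neither of its other probe sets passed in OFT minus LM (adjusted p 0.102 and 0.186) or in LM minus UM (adjusted p 0.294 and 0.0911), so those 2 Elavl4 calls rest on the brightest set. In p75-sorted cells minus UM, 1 of its other probe sets did not pass, at 0.47 (adjusted p 0.198). On that probe set the p75-sorted mutant (147.6) did not exceed the UM control (148.5). The second Neurog1 probe set never exceeded the filter, at a highest intensity of 13.5, so the Neurog1 pattern rests on 1 probe set, as does that of Neurog2, for which no other was used.

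Many other regulators of neuronal differentiation were higher in p75-sorted cells, in lists chosen with earlier results of these data known. Of the 17 tested in a list of proneural and differentiation regulators, 14 were higher and 1 lower than in LM, 12 and 0 against OFT, and 10 and 0 against UM. Of all tested genes, 26.1% were higher and 15.9% lower against LM, 19.2% and 15.4% against OFT, and 26% and 16% against UM. Nhlh2, a bHLH factor of young neurons, exceeded LM by 2.34, and Insm1, a zinc finger factor of neuronal progenitors, by 1.88. Against UM, Insm1 differed by 0.08 (adjusted p 0.787) and Nhlh1 by 0.01 (adjusted p 0.957), and neither passed. Ebf1 and Ebf2, factors of migrating and differentiating neurons, exceeded OFT by 1.84 and 1.71 and UM by 1.54 and 1.86. In LM, 1 of 17 regulators was higher and 4 were lower than in UM, against 0.738% and 0.82% of all genes. Among the lower were Insm1 (-1.81), Nhlh2 (-1.51) and Nhlh1 (-1.32). Of 20 pan-neuronal genes, 19 were higher and 0 lower in p75-sorted cells than in LM, 12 and 1 against OFT, and 17 and 0 against UM. The shares of all genes are those given above for p75-sorted cells.

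Within a list of 16 genes of Notch signalling, which sets the pace of neurogenesis by lateral inhibition, most counts lay near the shares of all genes: p75-sorted cells had 5 higher and 2 lower genes against LM, 3 and 5 against OFT, and 3 and 3 against UM. The Notch ligand Dll1, a Neurog target, was higher than in LM by 1.70 and than in UM by 1.53. Dll3 was higher than in OFT by 1.94, and Jag1, another ligand, was lower than in OFT at -1.77. Notch1, the receptor, exceeded LM by 1.96 and UM by 2.29.

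Markers of sensory and autonomic identity divided, and many of the counts lay near the shares of all genes given above. Of 12 sensory genes, 4 were higher and 3 lower in p75-sorted cells than in LM, 1 and 3 against OFT, and 2 and 4 against UM. Eya1, a transcriptional coactivator of placodes and cranial ganglia, was lower in p75-sorted cells than in LM at -1.64 and than in UM at -2.21. Ntrk2 and Ntrk3, neurotrophin receptors, exceeded LM by 1.28 and 1.27. Isl1, a LIM homeobox factor of sensory, autonomic and motor neurons that the second heart field also carries, was lower in p75-sorted cells than in OFT at -1.32. Of 12 autonomic genes, 7 were higher and 1 lower in p75-sorted cells than in LM, 4 and 3 against OFT, and 5 and 4 against UM. Gfra3, the artemin receptor of sympathetic and sensory neurons, exceeded LM by 2.89 and OFT by 2.71, and Ret, its signalling partner, was higher in OFT than in LM by 2.18 and than in UM by 1.54.

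In UM, where Neurog1 and Neurod1 peaked, some markers of central nervous system progenitors were also high. The summed intensity of the 9 listed progenitor markers was 741 in the p75-sorted mutant and 816 in the p75-sorted control, 448 and 381 in OFT, 491 and 394 in LM, and 1209 and 1293 in UM. Of the 7 tested, 0 were higher and 3 lower in p75-sorted cells than in UM, against 26% and 16% of all genes. In OFT it was 0 and 5, against 9.01% and 3.09%, and in LM 0 and 4, against 0.738% and 0.82%. Lhx2, a LIM homeobox factor of forebrain, eye and olfactory progenitors, read 221 in the UM mutant and 189 in the UM control, and Pax6 read 64.6 and 70.0. Sox2 read 691 in the UM mutant and 788 in the UM control, and Sox3 63.7 and 47.9. Both genes were highest in UM, but neither differed past the threshold between p75-sorted cells and UM. Olig2 was also highest in UM, at 25.7 and 21.9, close to the filter. Emx2 did not set UM apart from LM, with 135 and 155 in UM and 185 and 148 in LM, mutant first. Nkx2-2 lay under the filter on both UM arrays. Sox1 and En1 stayed under the filter on all 8 arrays, at 19.3 or less and 11.1 or less. Epithelium markers summed to 353 in the p75-sorted mutant and 396 in the control, 1535 and 1561 in OFT, 1010 and 908 in LM, and 1995 and 1665 in UM. The part of such cells in the Neurog1 and Neurod1 values of UM was not tested.

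The genes whose levels most resembled each member were found by Pearson correlation over the 8 arrays among 833 variable genes. The coefficients describe arrays that share origins, and carry no test. For Neurog1 they were Otx2 (0.979), Lhx2 (0.947) and Tfap2b (0.934). Otx2, a homeobox factor of forebrain and anterior placodes, read 32.2 in the p75-sorted mutant and 66.2 in the control, 0.207 and 3.49 in OFT, 0.624 and 4.0 in LM, and 181 and 194 in UM. For Neurog2 they were Tmeff2 (0.972), Cthrc1 (0.971) and Spsb4 (0.971). For Neurod1 the likeness was looser beyond Cldn11 (0.926), with Sp8 at 0.790 and Id4 at 0.777. For Neurod4 the closest genes were Isl1 (0.751), Nefm (0.741) and Ret (0.725), which describes a gene near the bottom of the scale.

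Pou4f1 was most like Ebf1 (0.974), Cbln1 (0.972) and Socs3 (0.958). Elavl3 was most like Fabp7 (0.973), a fatty acid binding protein of glial progenitors, with Pcdh8 (0.958) and Miat (0.957). Elavl4 was most like Rtn1 (0.979), Nhlh2 (0.979) and Tubb3 (0.970), the neuronal tubulin. Between members the coefficient was 0.949 for Pou4f1 and Elavl3, 0.842 for Elavl3 and Elavl4, 0.716 for Neurog1 and Neurod1, 0.021 for Neurog1 and Neurog2 and -0.008 for Pou4f1 and Neurod1.

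**Figure D3:**
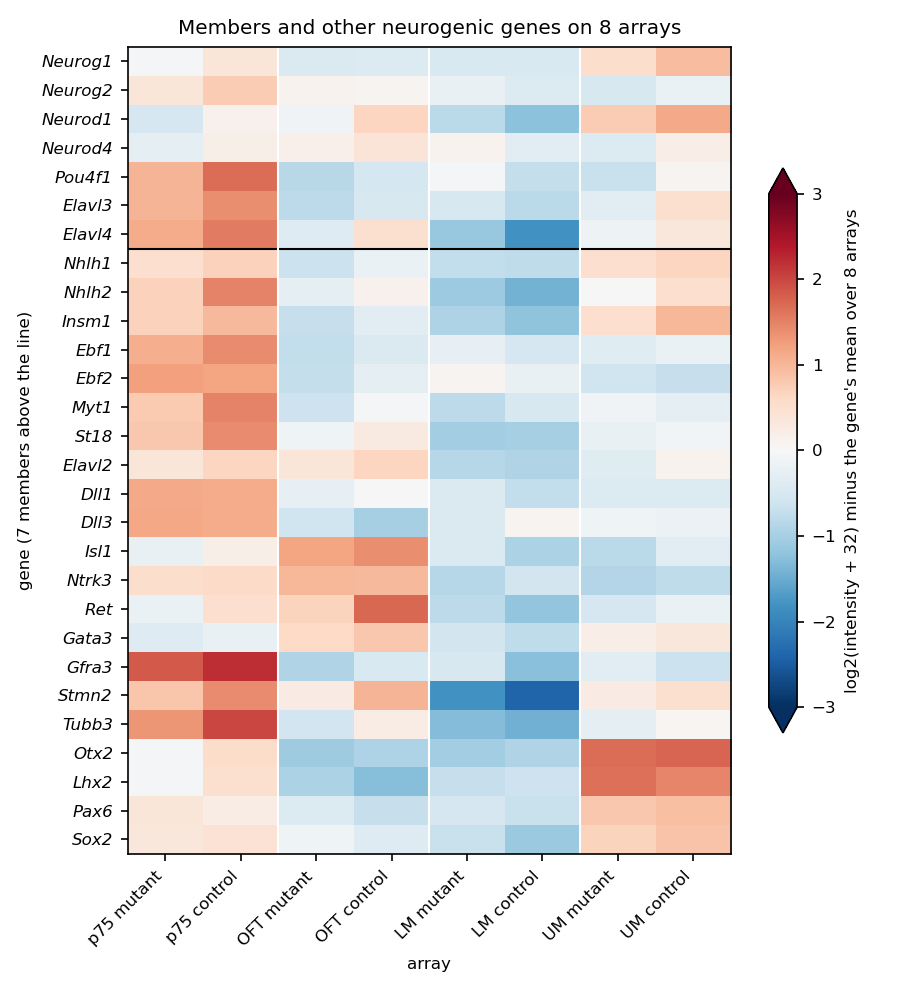
Each gene's log2(intensity + 32) on the 8 arrays relative to its own mean, with the 7 members above the line and 21 companion genes, picked from the lists and the likeness ranking after their values were seen, under it. The UM arrays are high for Neurog1, Neurod1, Otx2 and Lhx2, and the p75-sorted arrays for Pou4f1, Elavl3, Elavl4 and Gfra3.

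No member passed the test between FAK mutants and controls. Across the 4 pairs the mutant-minus-control log2 difference was -0.33 ± 0.18 for Neurod1, -0.29 ± 0.17 for Elavl3, -0.28 ± 0.21 for Elavl4, -0.26 ± 0.20 for Pou4f1, -0.21 ± 0.13 for Neurog1, -0.21 ± 0.17 for Neurod4 and -0.12 ± 0.14 for Neurog2 (SE, n = 4 pairs). Each had an adjusted p of 1 in limma, and 0% of all tested genes were called higher and 0% lower, with a smallest adjusted p of 0.75. At an unadjusted p under 0.05 there were 0 members and 410 of 13543 genes. All 7 estimates lay below 0, as did those of 7377 of the 13543 genes, but most values of Neurog1, Neurog2 and Neurod4 lay under the filter.

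The single pairs differed in sign. Pou4f1 differed by -0.65 in p75-sorted cells, -0.31 in OFT, 0.69 in LM and -0.74 in UM. Elavl4 differed by -0.46, -0.88, 0.70 and -0.47 in the same order of origins, Elavl3 by -0.37, -0.30, 0.32 and -0.80, and Neurod1 by -0.62, -0.75, 0.44 and -0.38. In all 4 genes the mutant array was the lower of the pair in p75-sorted cells, OFT and UM and the higher in LM. The LM control arrays of Pou4f1 (18.2) and Elavl4 (17.4) lay under the filter, as did the OFT mutant of Pou4f1 (14.3). The dim members differed by -0.45, -0.23, 0.45 and -0.61 in Neurod4, by -0.43, -0.03, 0.0008 and -0.39 in Neurog1 and by -0.42, 0.02, 0.19 and -0.29 in Neurog2. Most of those values lie under the filter, so no sign is read from them.

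The signs of Pou4f1, Elavl3, Elavl4 and Neurod1 were also those of 9 of 20 pan-neuronal genes and of 5.77% of all tested genes. The median differences of all 7 members, dim ones included, were -0.45 in p75-sorted cells, -0.30 in OFT, 0.44 in LM and -0.47 in UM, against -0.58, -0.57, 0.20 and -0.15 for the pan-neuronal genes and -0.02, -0.05, -0.04 and 0.04 for all tested genes. With 1 array per genotype in an origin, no pair has a test, and different numbers of neurons in the paired dissections cannot be told apart from a change per neuron. The other probe sets of Elavl3 read -0.30 and 0.03 in the LM pair, unlike the brightest at 0.32, and the second Neurog1 probe set read 0.29 in the p75-sorted pair. The other Neurod4 probe sets read -0.40 and -0.0061 in the LM pair, and 1 of them 0.31 in the p75-sorted pair. With the LM pair left out, 0 members were called and the estimates for Elavl4, Neurod1 and Pou4f1 were -0.61, -0.59 and -0.57, with adjusted p of 0.775, 0.815 and 0.866.

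**Figure D4:**
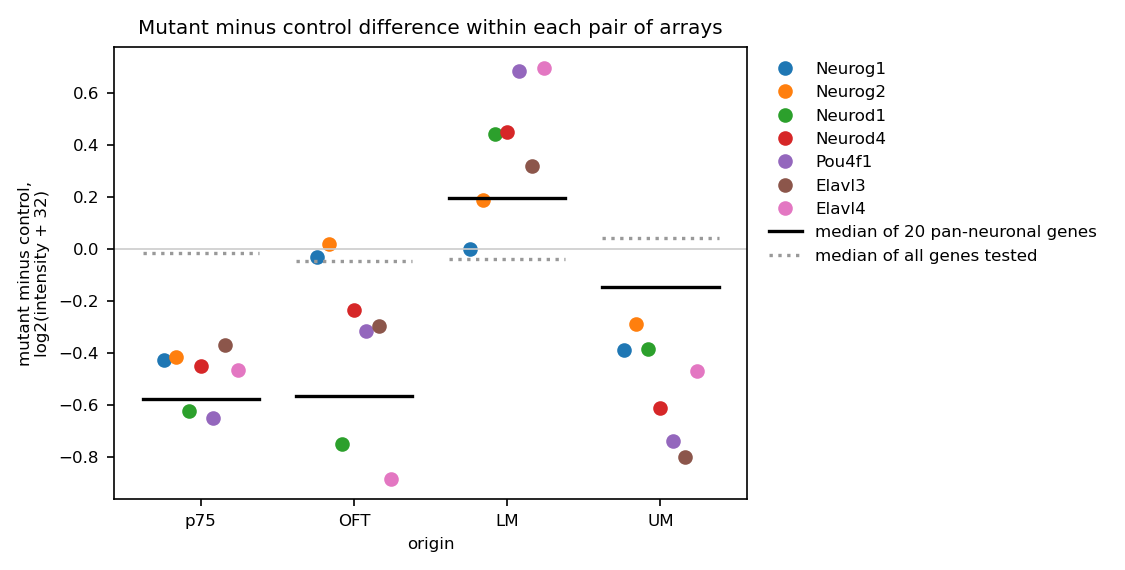
Mutant-minus-control log2 difference of each of the 7 genes in the p75-sorted, OFT, LM and UM pairs, 1 array per genotype in each, with a black bar at the median of the 20 pan-neuronal genes and a dotted bar at that of all tested genes. For Pou4f1, Elavl3, Elavl4 and Neurod1 the LM differences lie above 0 and reach 0.70 for Elavl4, while those of the other origins lie below 0. Most values of Neurog1, Neurog2 and Neurod4 lie under the filter, so no sign is read from them.

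The wider neuronal lists likewise held no call between mutant and control. The median difference was -0.23 for the 20 pan-neuronal genes, with 16 below 0, and -0.14 for the 17 differentiation regulators, with 13 below 0. It was -0.05 for sensory genes, 0.03 for autonomic genes, -0.03 for Notch genes and -0.13 for glia and crest progenitor markers. At an unadjusted limma p under 0.05 there were 6 of the 20 pan-neuronal genes and 2 of the 17 regulators, against 410 of 13543 genes. The same count was 0 of 12 sensory, 2 of 12 autonomic and 0 of 16 Notch genes. These lists were chosen with earlier results of these data known. The smallest unadjusted p among the pan-neuronal genes was that of Mapt, which encodes the microtubule protein tau, at -0.48 ± 0.13 (unadjusted p 0.00322, limma adjusted p 1).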

How the data were processed

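Transcript levels were measured on 8 Affymetrix arrays. The authors deposited 1 intensity per probe set, unlogged. The sources used here do not give the software behind it. The trimmed mean intensity was 150.0 on each array, so the deposited values had already been scaled to a common level. All arrays had medians of 5.95 to 6.08 on the log2 scale used here, and no further scaling was applied. The platform annotation named the probe sets: of 45101, 34945 had 1 gene, 932 had several and were left out, 9160 stayed unnamed and 64 were controls. Each of 18193 genes was read on its brightest probe set. Genes with 2 of 8 arrays above the 40th percentile were kept. Fold changes are on the log2(intensity + 32) scale, which understates those of dim genes.

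Fits used limma 3.58.1 in R 4.3.3 (lmFit, eBayes) with terms for origin and genotype, and Benjamini-Hochberg adjustment within each comparison over 13543 genes at a threshold of 0.05. The origin term pairs the mutant and control array of each origin; the pairing comes from the labels. Values after ± are moderated SE. The script was tested on simulated data. The number of arrays limits the precision. Members and gene lists were chosen with earlier results of these data known. All 7 members are named, with up to 3 genes per list and comparison, taken from those called with the largest difference. Not every such gene is named. Where none was called, up to 2 were taken with the smallest unadjusted p and 1 sign in 4 of 4 pairs. Insm1 and Nhlh1 are also given for p75-sorted cells minus UM, where neither was called. Ngfr, Sox1, Sox3, Olig2, En1 and Nkx2-2 were named after their values were seen. Likeness named the 3 highest genes by Pearson correlation among genes spanning at least 2 log2 units. Promoters are RefSeq, GRCm38.p6; the array values carry no genome build. Ptk2, which encodes FAK, is not analysed here, so the mutation was not checked on its own transcript. Alternatives were the pseudocount, filter, probe set rule, quantile normalization, model terms, arrays used, and leaving out each array.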

Additional observations from a re-analysis of the deposited data

Results flagged for a closer look

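Both results here are pairs of opposite mutant-minus-control differences between origins. They are drawn from 1 array per genotype in each origin, and the difference between the origins was not tested. Pou4f1 was lower in the mutant of UM, at -0.74 on the log2 scale, and higher in the mutant of LM, at 0.69. Elavl4 was lower in the mutant of OFT, at -0.88, and higher in the mutant of LM, at 0.70.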

How the results depend on the processing

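Of 812 values of single members under the alternatives, 758 kept their direction and side of the threshold, 44 lost the call, 10 gained one and 0 reversed. Counts of members called moved as follows. With a pseudocount of 1, OFT minus LM had 0 called, against 2, and LM minus UM had 1, against 3. With probe sets of each gene averaged, LM minus UM had 1. Requiring 4 of 8 arrays above the filter, which removes Neurog1, Neurog2 and Neurod4, left 0 in OFT minus UM, against 1, and a fit on its 4 arrays alone gave 3. Leaving out each array in turn gave 3 to 6 members for p75 minus LM, 2 to 4 for p75 minus OFT, 4 to 6 for p75 minus UM, 0 to 3 for OFT minus LM, 1 to 3 for OFT minus UM and 1 to 4 for LM minus UM. Without the replicate block (no origin term) the genotype fit called 0 members and 0 genes, as with it. Leaving out the LM pair from the blocked fit gave 0 members and 1 gene.

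Counts of all genes called also moved by over 1.5 times. A pseudocount of 1 gave 64 for LM minus UM against 211, 612 for OFT minus LM against 1483, 796 for OFT minus UM against 1638, and 2845 for p75 minus OFT against 4693. The 4 arrays alone gave 2696 for OFT minus LM. Without single arrays the lowest were 110 for LM minus UM, 505 for OFT minus LM, 646 for OFT minus UM, 1816 for p75 minus OFT, 3227 for p75 minus LM against 5691 and 3086 for p75 minus UM against 5684. The cause was not tested. Values near the bottom of the scale, as for Neurog1 in OFT and LM and for Neurod4, have no order.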
